A study of Homo sapiens with 6 samples.

Results

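The 47 genes described here are interferon-stimulated effector genes, the proteins that cells make in response to interferon to block viruses and other intracellular pathogens. They were chosen by name, from the IFIT, IFI, IFITM, OAS, MX, TRIM and GBP families and from other well-known interferon targets. Earlier results of these data were known when the list was chosen, so that its counts beside all genes do not come from a blind choice. All 47 had a probe set annotated with their symbol alone among the 18244 genes tested. Expression was measured on 6 Affymetrix arrays of A549, an established cell line from a human lung adenocarcinoma. The cells had received a lentivirus with a short hairpin RNA against MRPL35, a protein of the mitochondrial ribosome (KD, 3 arrays), or a lentivirus with a control hairpin (NC, 3 arrays). Both groups therefore carried a lentivirus, and neither the hairpin sequences nor the time after infection is given in the sources used here. The number of arrays limits the precision, and the labels do not say that samples of a group were separate cultures, so that the p-values rest on a spread among arrays that may be only technical.

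Interferons bind receptors that activate the kinases JAK1 and TYK2, which phosphorylate STAT proteins. With IRF9, STAT proteins form a complex that binds the interferon-stimulated response element in the promoters of many interferon-stimulated genes. Several of those genes can also be switched on by IRF transcription factors directly. In lung epithelium the products act against respiratory viruses at each step of infection, from entry (IFITM) through viral RNA (IFIT, OAS) to assembly and release (BST2).

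MRPL35 itself was lower in all 3 KD arrays, at 6.49, 6.44 and 6.56 against 8.16, 8.05 and 8.36 in NC (log2 values, replicates 1 to 3), which left 30.9% of the control signal. Over all genes, KD and NC parted on the first principal component (79.0% of the variance), and the second (11.8%) set NC replicate 2 apart. A549 epithelial markers read high except SLC34A2, which had means of 4.10 in KD and 4.09 in NC. Of the 10 markers 7 were higher in KD and 0 lower, where 17.6% of all genes were higher and 15.9% lower. Their list mean was 11.84 to 11.88 in KD against 11.30 to 11.35 in NC (log2). Markers of lymphocytes (0 of 7 higher) and of fibroblasts (0 of 6) and endothelium (0 of 5) did not rise, and of 7 myeloid and dendritic cell markers 1 rose (CD14) and 1 fell (ITGAM). The mean of the myeloid list spanned 4.26 to 4.30 over KD arrays and 4.16 to 4.39 over NC arrays, and that of the lymphocyte list 4.23 to 4.29 and 4.22 to 4.49. NC replicate 2 was the highest array in each of these 4 lists from other cell types. The leukocyte gene PTPRC, near the bottom of the scale, had a mean of 2.47 in KD and 2.57 in NC. The part of the epithelial marker shift in the changes below was not tested. In such bulk RNA a change in the share of cells that express a gene and a change in RNA per cell cannot be told apart.

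The letters below show the response element core in promoters of members that rose, fell or did not pass the test, so that they can be set beside the values that follow. The core was searched as GAAANNGAAA on both strands of the 300 bases from 250 before to 50 after each RefSeq transcription start (build GRCh38.p14), and overlapping matches count separately. Capitals mark the matches, which appear as the reverse complement where they lie on the other strand, and each sequence runs 5′ to 3′ on the strand of its gene. The first 5 belong to members that rose, OAS3 fell, and the last 4 did not pass. Not every match is printed: OAS3 holds another at -12 to -3 from its start, and a further promoter of IFIT3 holds 2.

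IFIT1, chr10:89392495-89392541, plus strand: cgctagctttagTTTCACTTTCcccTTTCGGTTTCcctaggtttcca
IFIT3, chr10:89332423-89332499, plus strand: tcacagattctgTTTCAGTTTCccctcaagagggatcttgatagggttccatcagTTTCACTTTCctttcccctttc
ISG15, chr1:1013372-1013411, plus strand: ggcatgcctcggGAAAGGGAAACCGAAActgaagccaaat
IFI6, chr1:27672264-27672360, minus strand: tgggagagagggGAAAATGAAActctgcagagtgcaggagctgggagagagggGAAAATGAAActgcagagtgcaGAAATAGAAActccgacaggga
PARP9, chr3:122564320-122564353, minus strand: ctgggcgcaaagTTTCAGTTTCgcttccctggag
OAS3, chr12:112938319-112938352, plus strand: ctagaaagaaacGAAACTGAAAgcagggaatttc
BST2, chr19:17405733-17405772, minus strand: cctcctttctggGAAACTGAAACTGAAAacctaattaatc
RSAD2, chr2:6877620-6877653, plus strand: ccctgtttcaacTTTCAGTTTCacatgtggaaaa
DDX60, chr4:168318784-168318852, minus strand: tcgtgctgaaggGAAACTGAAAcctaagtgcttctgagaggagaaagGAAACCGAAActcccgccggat
GBP1, chr1:89065314-89065347, minus strand: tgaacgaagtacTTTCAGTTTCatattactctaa

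The members were mostly higher or not called after MRPL35 knockdown. Of the 47 genes 25 rose, 3 fell and 19 did not pass (limma, adjusted p under 0.05), where 17.6% of all genes tested rose and 15.9% fell. Of the 25, 8 rose at least 2-fold, a size that 2.27% of all genes reached. The median change was 0.52 on the log2 scale, or 1.43-fold, beside -0.02 over all genes. All KD arrays lay above all NC arrays for 28 members, as for 23.2% of all genes, and all lay below for 4, as for 21.5%. Averaged over the 47 genes, the KD arrays read 6.54, 6.56 and 6.61 and the NC arrays 6.05, 6.03 and 6.05, so that NC replicate 2 did not stand apart here. Without NC replicate 2 the counts were 24 higher and 4 lower.

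**Figure D1:**
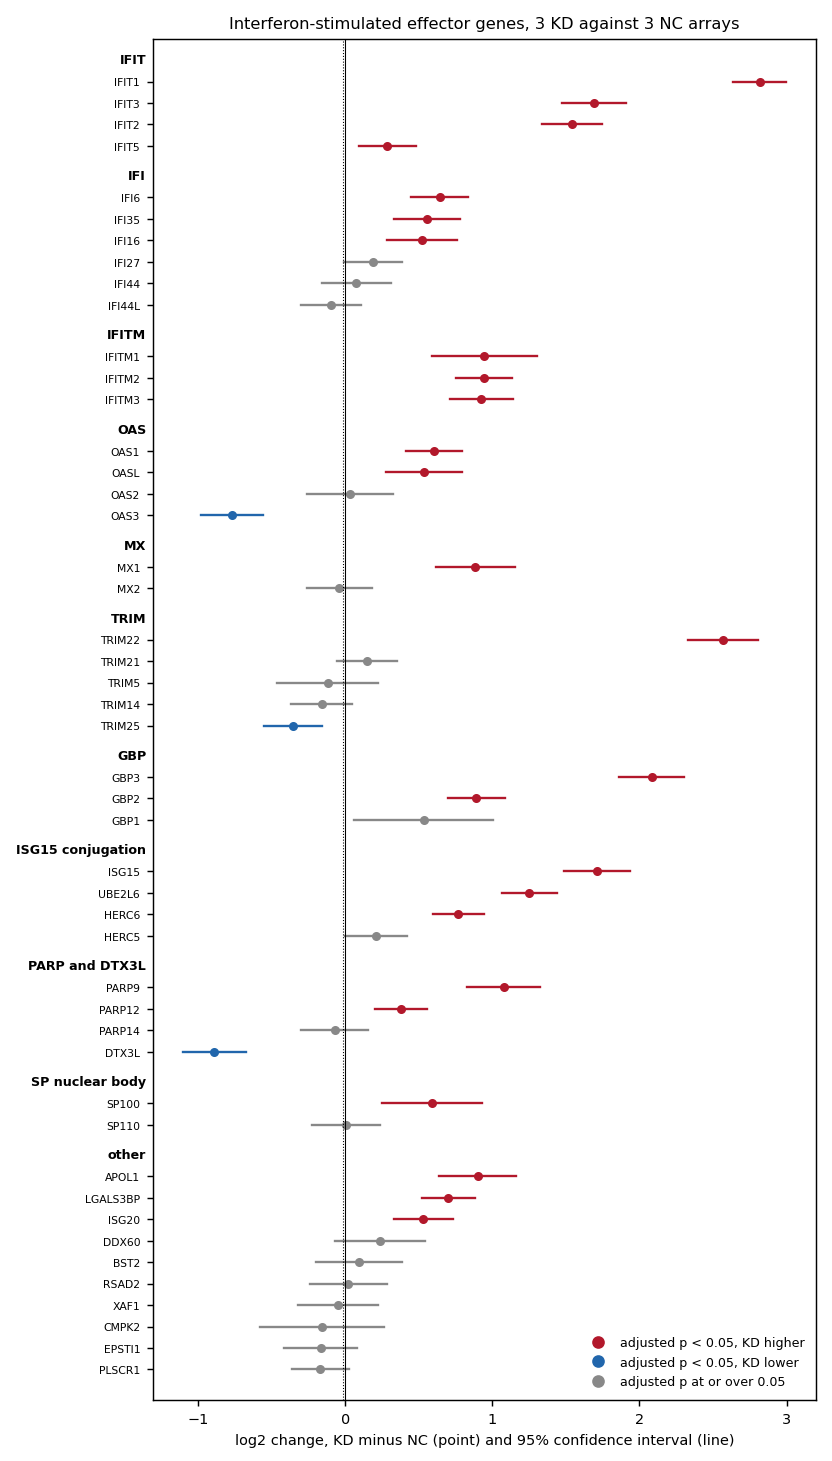
Change of each member between KD and NC, grouped by family, as log2 KD minus NC (point) with its 95% confidence interval (line) from the fit over all genes, 3 arrays per group. The dotted line is the median of all genes, and IFIT1, TRIM22 and GBP3 lie farthest right, at 2.82, 2.57 and 2.08.

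IFIT genes, whose products bind foreign RNA by its 5′ end or block its translation, all rose. IFIT1, which recognises RNA without the methyl mark of cellular caps, read 8.75, 8.75 and 8.74 in KD and 6.03, 5.85 and 5.91 in NC (log2). The 3 KD arrays stood within 0.02 of each other and far above every NC array, a 7.05-fold rise with an interval of 2.64 to 3.00 on the log2 scale (limma, adjusted p = 7.83e-07). Its partner IFIT3 read 7.94, 7.80 and 7.80 in KD and 6.07, 6.08 and 6.32 in NC, 3.23-fold higher (adjusted p = 3.67e-06), on an x-suffix probe set, which can also bind other transcripts. IFIT2, the third protein of that complex, read 7.16, 7.05 and 7.30 against 5.55, 5.67 and 5.67, 2.91-fold higher (adjusted p = 4.47e-06), and its second probe set rose by 0.92. IFIT5 read 6.62, 6.67 and 6.71 against 6.50, 6.27 and 6.37, so that its groups parted by little and its change of 0.29 (adjusted p = 0.0309) was far below the others. That call was lost without any of KD replicates 1, 2 and 3 or NC replicates 2 and 3 (adjusted p of 0.0522 to 0.117), with median centring (0.0585), and with the mean of its probe sets (0.0734).

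The IFI genes, which share a naming history but not a protein family, split evenly, with 3 of 6 higher and 3 that did not pass. IFI6, a small hydrophobic membrane protein, read 7.43, 7.25 and 7.32 in KD and 6.72, 6.62 and 6.75 in NC (log2), with no overlap and a 1.56-fold rise (limma, adjusted p = 0.000380). IFI35, a leucine-zipper protein, rose by 0.56 (adjusted p = 0.00200) and both of its probe sets passed. IFI16, a nuclear sensor of DNA, rose by 0.52 (adjusted p = 0.00416), with 2 dimmer probe sets at 0.38 and 0.31 that did not pass. IFI27, a small mitochondrial and nuclear envelope protein, changed by 0.19 (adjusted p = 0.147), while its second probe set rose by 0.58, and the mean of both passed (adjusted p = 0.00920). IFI44 (0.07) and IFI44L (-0.10), often used as markers of interferon exposure in blood, did not pass on any of their 9 probe sets. Their intervals were -0.16 to 0.31 and -0.30 to 0.11. Both lay low in mean signal, at percentiles 13.1 and 14.4 of all genes, where background was not measured. The intervals therefore bound the change in signal and not in transcript.

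IFITM proteins, which sit in membranes and hinder fusion of viral envelopes, rose together. IFITM2 read 10.68, 10.85 and 10.66 in KD and 9.75, 9.77 and 9.83 in NC (log2), a 1.92-fold rise (limma, adjusted p = 3.96e-05) with no overlap. IFITM1 rose by 0.94 (adjusted p = 0.00148) and IFITM3 by 0.92 (adjusted p = 8.79e-05). The genes are neighbours of closely similar sequence and all 3 were read by x-suffix probe sets, so that how far each value belongs to its own gene is uncertain. A second probe set of IFITM1 with an a suffix, which marks alternative transcripts of 1 gene, rose by 0.95.

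The OAS genes moved in both directions. OAS1 and OAS3 make 2′-5′ oligoadenylates when they meet double-stranded RNA. OAS3, the longest of the enzymes, had the smallest p of the family and fell: it read 7.60, 7.71 and 7.77 in KD and 8.57, 8.32 and 8.50 in NC (log2), 1.71-fold lower with no overlap (limma, adjusted p = 0.000240). OAS1 read 8.05, 7.87 and 7.97 in KD against 7.34, 7.31 and 7.44 in NC, 1.52-fold higher and also without overlap (adjusted p = 0.000540). OASL, which lacks the enzymatic activity, rose by 0.53 (adjusted p = 0.00575), and OAS2 changed by 0.03 (interval -0.26 to 0.32). The probe sets of each enzyme did not all move together. Besides the one used, 2 OAS1 probe sets rose, by 0.41 and 0.32, and 1 with an s suffix, shared with other transcripts, fell by 0.30. A second OAS3 probe set fell by 0.62, while the third, the only one without a suffix, changed by 0.02 and did not pass.

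MX genes encode dynamin-like GTPases that trap viral nucleocapsids. MX1, active against influenza virus, read 4.18, 4.01 and 4.33 in KD and 3.16, 3.50 and 3.22 in NC (log2), 1.85-fold higher without overlap (limma, adjusted p = 0.000408). MX2, active against human immunodeficiency virus, read 3.02, 3.20 and 2.89 against 3.03, 3.17 and 3.05, overlapping groups with an interval of -0.26 to 0.18. Both lay below the 40th percentile of mean signal over all genes, where background was not measured.

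Of 5 TRIM family genes 1 rose, 1 fell and 3 did not pass, near the shares of all genes that rose (17.6%) and fell (15.9%). TRIM22, a nuclear antiviral factor, was the one that rose. It read 9.01, 8.95 and 9.08 in KD and 6.51, 6.24 and 6.59 in NC (log2), 5.92-fold higher (limma, adjusted p = 1.32e-06), and its 5 other probe sets rose by 1.22 to 3.08. TRIM25, which ubiquitinates the RNA sensor RIG-I, read 7.997, 8.007 and 8.010 in KD and 8.463, 8.214 and 8.408 in NC, 1.28-fold lower (adjusted p = 0.0117). This rests on an s-suffix probe set, and the second one changed by -0.01, so that the call was lost without s and x probe sets. The retroviral capsid sensor TRIM5 (-0.12), the antibody receptor TRIM21 (0.15) and the mitochondrial adaptor TRIM14 (-0.16) did not pass (adjusted p of 0.620, 0.269 and 0.231). Without NC replicate 2 the change of TRIM5 was -0.30 and passed (adjusted p = 0.0306).

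GBP genes, GTPases that coat pathogen vacuoles and are known targets of interferon gamma as well, were higher in every KD array. GBP3 read 6.35, 6.21 and 6.24 in KD and 4.36, 4.12 and 4.08 in NC (log2), a 4.24-fold rise (limma, adjusted p = 1.71e-06). GBP2 rose 1.85-fold (adjusted p = 6.46e-05) from a single s-suffix probe set. GBP1 read 3.23, 3.43 and 4.16 in KD against 3.08, 3.17 and 2.98 in NC. KD replicate 3 was far above the other arrays, and the change of 0.53 did not pass (adjusted p = 0.0837). It did pass without KD replicate 1 (0.0266), with trend and robust fitting (0.0322) and with array weights (0.0432). Without KD replicate 3 the change was 0.26, and a probe set without an x or s suffix gave 0.0024. None of the other GBP1 probe sets passed, with changes of 0.0024 to 0.20.

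**Figure D2:**
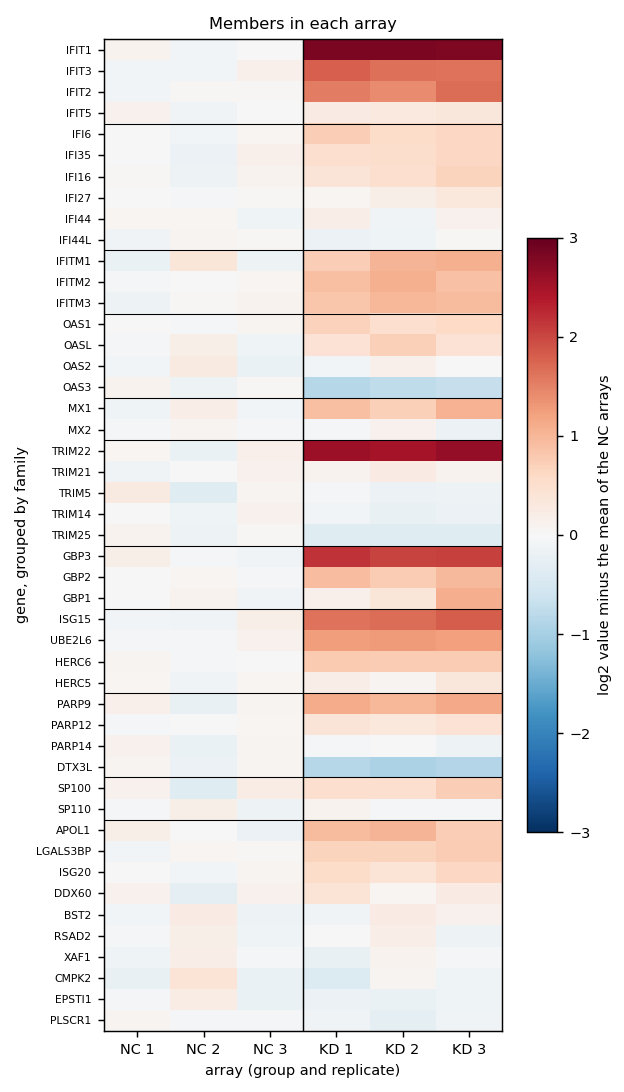
Value of each member in each array, as log2 value minus the mean of the NC arrays, with genes in rows grouped by family and arrays in columns (3 NC, then 3 KD). Red rows such as IFIT1, TRIM22 and GBP3 are as high in each KD array, OAS3 and DTX3L are low in all 3, and IFITM1 and CMPK2 show the NC replicate 2 array above the other NC arrays.

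ISG15 is a ubiquitin-like protein that is attached to other proteins. Of the 4 genes grouped with it here, itself included, 3 rose. ISG15 read 8.65, 8.70 and 8.83 in KD and 6.93, 6.92 and 7.19 in NC (log2), 3.27-fold higher (limma, adjusted p = 4.25e-06). UBE2L6, the conjugating enzyme for ISG15, read 9.07, 9.10 and 9.05 against 7.77, 7.75 and 7.94, 2.38-fold higher (adjusted p = 8.39e-06). Neither overlapped between the groups. Of the HERC genes, HERC6 rose 1.70-fold (adjusted p = 7.65e-05). HERC5, the main human ligase for ISG15, changed by 0.21 with an interval of -0.01 to 0.42 (adjusted p = 0.134). Each of these 4 genes rests on 1 probe set.

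PARP9 and DTX3L, whose products work as a pair in a ubiquitin ligase, went opposite ways on their brightest probe sets. PARP9 read 7.89, 7.77 and 7.92 in KD and 6.93, 6.56 and 6.86 in NC (log2), 2.11-fold higher (limma, adjusted p = 8.53e-05). DTX3L read 6.66, 6.55 and 6.62 in KD and 7.59, 7.33 and 7.59 in NC, 1.85-fold lower (adjusted p = 0.000104). In both genes the groups stood apart in every array. The probe sets divide within each gene. A second PARP9 probe set rose by 0.76 while the one without a suffix changed by -0.11. The DTX3L probe set used has an s suffix, and a second one with an x suffix fell by 0.73. Both types can also bind other transcripts. The only other DTX3L probe set, a dim one with an a suffix, changed by 0.05, so that the fall of DTX3L itself is uncertain. PARP12, an ADP-ribosyltransferase of stressed membranes, rose by 0.38 (adjusted p = 0.00473). PARP14 changed by -0.07 on its brightest probe set, and of its 5 others 1 rose, by 0.27.

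SP100, a component of PML nuclear bodies, read 7.002, 6.998 and 7.230 in KD and 6.612, 6.134 and 6.713 in NC (log2), a rise of 0.59 (limma, adjusted p = 0.0140) that was lost without KD replicate 3 (0.0593). Of its other 8 probe sets 7 rose and 1 fell. Its relative SP110 changed by 0.01 on the brightest probe set, and 1 of its 4 others rose, by 0.40.

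Of the remaining 10 members 3 rose and 7 did not pass, where 17.6% of all genes rose. LGALS3BP, a secreted glycoprotein, read 10.14, 10.12 and 10.21 in KD and 9.37, 9.52 and 9.49 in NC (log2), 1.62-fold higher without overlap (limma, adjusted p = 0.000166). APOL1, a serum lytic factor against trypanosomes, rose by 0.90 (adjusted p = 0.000312), and its 8 other probe sets rose by 0.84 to 1.86. The exonuclease ISG20 rose by 0.53 (adjusted p = 0.00145). Those that did not pass were the virion tether BST2 (0.09), RSAD2 or viperin (0.02), its neighbour CMPK2 (-0.16), the apoptosis factor XAF1 (-0.05), the helicase DDX60 (0.24), EPSTI1 (-0.17) and the scramblase PLSCR1 (-0.17). The adjusted p of these 7 lay between 0.176 and 0.924. PLSCR1 read 8.96, 8.79 and 8.96 in KD against 9.15, 9.04 and 9.03 in NC, and RSAD2 read 3.12, 3.30 and 2.96 against 3.07, 3.27 and 2.98. KD was thus below NC in each PLSCR1 array by a small margin, while RSAD2 overlapped throughout. Dimmer probe sets differed for 3 of these genes: 1 of BST2 rose by 0.36, 1 of CMPK2 rose by 0.45, and the only PLSCR1 probe set without a suffix fell by 0.86.

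The members that rose spanned all signal levels. Of 13 members below the 40th percentile of mean signal 4 rose (IFI16, MX1, GBP2 and GBP3), of 23 between the 40th and 70th 14 rose, and of 11 above the 70th 7 rose, where 4.82%, 22.4% and 29.7% of all genes in these bands rose. Of the 19 members that did not pass 9 lay below the 40th percentile. For those a low signal does not show that the gene is silent, and the brightness of a probe also depends on its sequence.

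**Figure D3:**
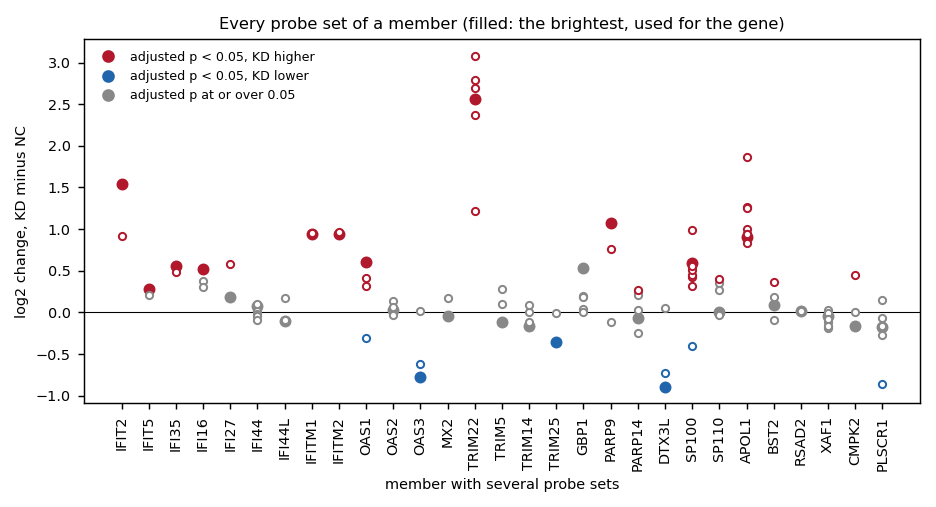
Change of every probe set of the 29 members with several, as log2 KD minus NC, coloured by the test over all 49293 probe sets, with the brightest probe set of each gene filled. TRIM22 and APOL1 rose on all of theirs, while OAS1, OAS3, PARP9, DTX3L and SP100 show probe sets of one gene apart from each other.

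The 47 members had 133 probe sets, and 29 members had more than 1. Members that rose had 33 further probe sets, of which 27 rose, 2 fell (OAS1 and SP100) and 4 did not pass. The other members had 53 further probe sets, of which 5 rose, 3 fell and 45 did not pass. Over all probe sets 16.5% rose and 14.1% fell (limma, adjusted over 49293). Of the 25 genes that rose, 12 were read by an x- or s-suffix probe set, 11 by an a-suffix one and 2 by one without a suffix (IFIT2 and IFIT5). All 3 genes that fell were read by an s-suffix probe set. With x and s probe sets left out, 35 members could be read and 15 rose while 1 fell, namely OAS3 (16.9% of all genes rose). With a-suffix ones left out as well, 12 members could be read and 1 rose (IFIT2) and 1 fell (PLSCR1).

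Many members lie side by side in the genome, and neighbours often differed. In 9 groups of 2 to 4 members at most 1 other protein-coding gene separates neighbours (RefSeq order, GRCh38.p14). The 4 IFIT genes rose as a run, yet IFIT1 changed by 2.82 and IFIT5 beside it by 0.29, with intervals that do not meet. OAS3 lies between OAS1 and OAS2 and fell while OAS1 rose. MX1 rose and MX2 beside it did not pass, and the intervals again do not meet. IFI44L and IFI44, and CMPK2 and RSAD2, are pairs in which neither passed. TRIM22 and TRIM5 lie on chromosome 11 with 3 protein-coding genes between them, at changes of 2.57 and -0.12.

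**Figure D4:**
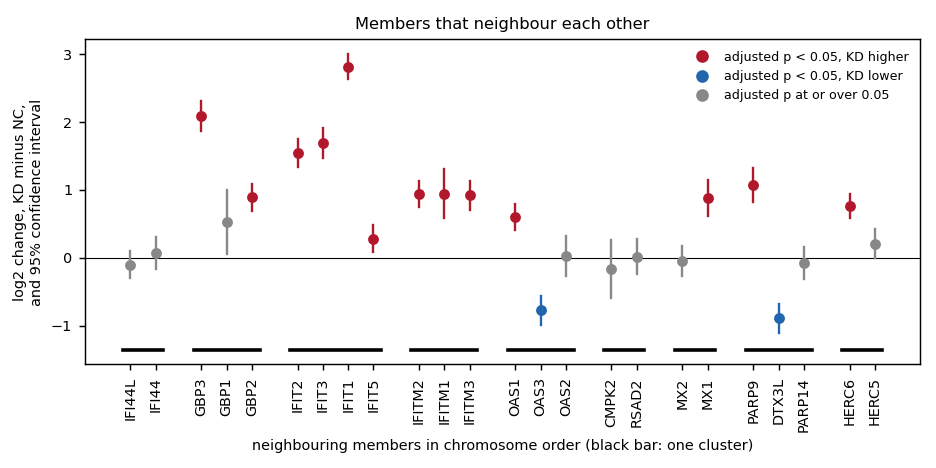
Change of members that neighbour each other, in chromosome order, as log2 KD minus NC with 95% confidence intervals (3 arrays per group), each black bar marking one cluster. The IFIT and IFITM clusters lie above 0 throughout, while OAS3 and DTX3L lie below 0 beside OAS1 and PARP9, which lie above it.

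PARP9 and DTX3L are read in opposite directions from start sites 38 bases apart on chromosome 3, and their promoter windows share 137 bases. The response element core printed above for PARP9 lies 41 to 32 bases before its start and is the same stretch of DNA that spans the start of DTX3L, from 6 before it. The pair therefore shares a match, and on the brightest probe sets 1 gene rose 2.11-fold and the other fell 1.85-fold. Another PARP9 probe set rose by 0.76 and another DTX3L one fell by 0.73. Both DTX3L falls came from s- or x-suffix probe sets, which can also bind other transcripts. The remaining probe sets, without a suffix for PARP9 and a dim a-suffix one for DTX3L, changed by -0.11 and 0.05 without passing. PARP9 also has a further listed promoter, which held 0 matches.

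The response element core was common both among the members that rose and among those that did not pass. The members were chosen as interferon targets, so that an excess of the core over all genes says nothing about the changes measured here. RefSeq promoters were found for 39 of the 47, and IFIT2, IFITM2, OAS2, OASL, MX2, TRIM22, GBP2 and APOL1 had no entry. Of the 39, 29 held the core in at least 1 promoter (74.4%), against 4.11% of 14494 tested genes with a promoter and 3.57% of all 35116 promoters. It was present in 13 of 19 members that rose (68.4%), in 2 of 3 that fell (OAS3 and DTX3L) and in 14 of 17 that did not pass (82.4%). IFIT1 and BST2 each hold 2 matches, as the printed letters show, and changed by 2.82 and, on the brightest of its probe sets, 0.09. That BST2 probe set lay below the 40th percentile of mean signal, where background was not measured. Its value therefore describes the signal and not the transcript. Of the dimmer BST2 probe sets 1 rose, by 0.36, and the others did not pass. The gamma-activated site, searched as TTCNNNGAA on both strands of the same windows, was present in 12 of 39 members (30.8%) and in 9.11% of tested genes. It was in 5 of 19 that rose and 7 of 17 that did not pass. The 300 bases searched do not cover more distant elements, and 13 members have several promoters, which gives them more chances of a match.

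Other genes of the interferon pathway came from a list of 66 outside the members. It held ligands, receptors, signalling genes, sensors and adaptors, feedback genes and induced chemokines, some of them interferon targets themselves. Of 59 measured 20 rose, 5 fell and 34 did not pass, with a median change of 0.08 (17.6% of all genes rose and 15.9% fell). The others on the list were not analysed here. None of the 7 interferon genes measured was called higher. IFNB1 read 3.07, 2.90 and 2.86 in KD and 2.95, 3.22 and 2.94 in NC (log2), and IFNA2, IFNG, IFNK, IFNL1 and IFNW1 changed by -0.19 to 0.02 without passing. IFNE, an interferon of epithelia, fell by 0.46 (limma, adjusted p = 0.00895). All 7 interferon genes lay below the 40th percentile of signal, where background was not measured. Their values therefore describe the signal and do not show that the transcripts were absent or unchanged.

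Receptor chains rose in part, where 17.6% of all genes rose. Of 6 chains, IFNAR2 (0.79) and IFNAR1 (0.71) of the type I receptor, IFNGR1 (0.58) of the type II receptor and IL10RB (0.33), shared by the type III receptor, rose, while IFNGR2 (-0.10) and IFNLR1 (-0.09) did not pass. The adjusted p of the rises lay between 0.000538 and 0.00864 (limma). IFNAR1 read 7.70, 7.66 and 7.66 in KD and 7.09, 6.66 and 7.14 in NC, with NC replicate 2 the lowest and no overlap.

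Of 12 measured kinases, STAT and IRF genes 6 rose and 1 fell, where 17.6% of all genes rose and 15.9% fell. IRF9, the DNA-binding partner of the STATs, read 9.08, 9.12 and 9.08 in KD and 7.24, 7.17 and 7.35 in NC (log2), 3.57-fold higher (limma, adjusted p = 1.53e-06). IRF7, which amplifies interferon production, read 6.56, 6.70 and 6.72 against 5.57, 5.72 and 5.46, 2.11-fold higher. IRF1 rose by 0.73 and IRF2, which opposes it, fell by 0.53 (adjusted p = 0.0131), a call lost without KD replicate 3 (0.0530) or NC replicate 1 (0.0519). IRF3, the factor that sensors activate first, changed by -0.10 and did not pass.

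Among 21 measured sensors and adaptors 7 rose and 1 fell, where 17.6% of all genes rose and 15.9% fell. RIGI, the RNA sensor RIG-I, read 6.42, 6.31 and 6.46 in KD and 5.41, 4.86 and 5.43 in NC (log2), 2.24-fold higher (limma, adjusted p = 0.000312). ZNFX1 (0.88), STING1, the adaptor of the DNA sensor cGAS (0.73), and TICAM1, the adaptor of TLR3 (0.60), rose. MAVS, the mitochondrial adaptor of RIG-I, fell by 0.37 (adjusted p = 0.0105), and the double-stranded RNA kinase EIF2AK2 (0.04) and ADAR (0.12), both interferon targets, did not pass. Of 9 feedback genes 3 rose and 2 fell, beside the same 17.6% and 15.9% of all genes. USP18, which removes ISG15 and damps receptor signalling, rose by 0.67 (limma, adjusted p = 0.00222), SOCS3 by 0.52 and the phosphatase PTPN6 by 0.27. PTPN11 (-0.42) and PTPN2 (-0.35) fell. The calls of PTPN2, PTPN6 and PTPN11 were each lost when any of several single arrays was left out. The interferon-induced chemokines CXCL9, CXCL10, CXCL11 and CCL5 changed by -0.19 to -0.01, and 0 of 4 passed in limma or at an unadjusted p under 0.05. All 4 chemokine genes lay below the 40th percentile of mean signal, where background was not measured. Their values therefore do not show that the transcripts were unchanged.

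**Figure D5:**
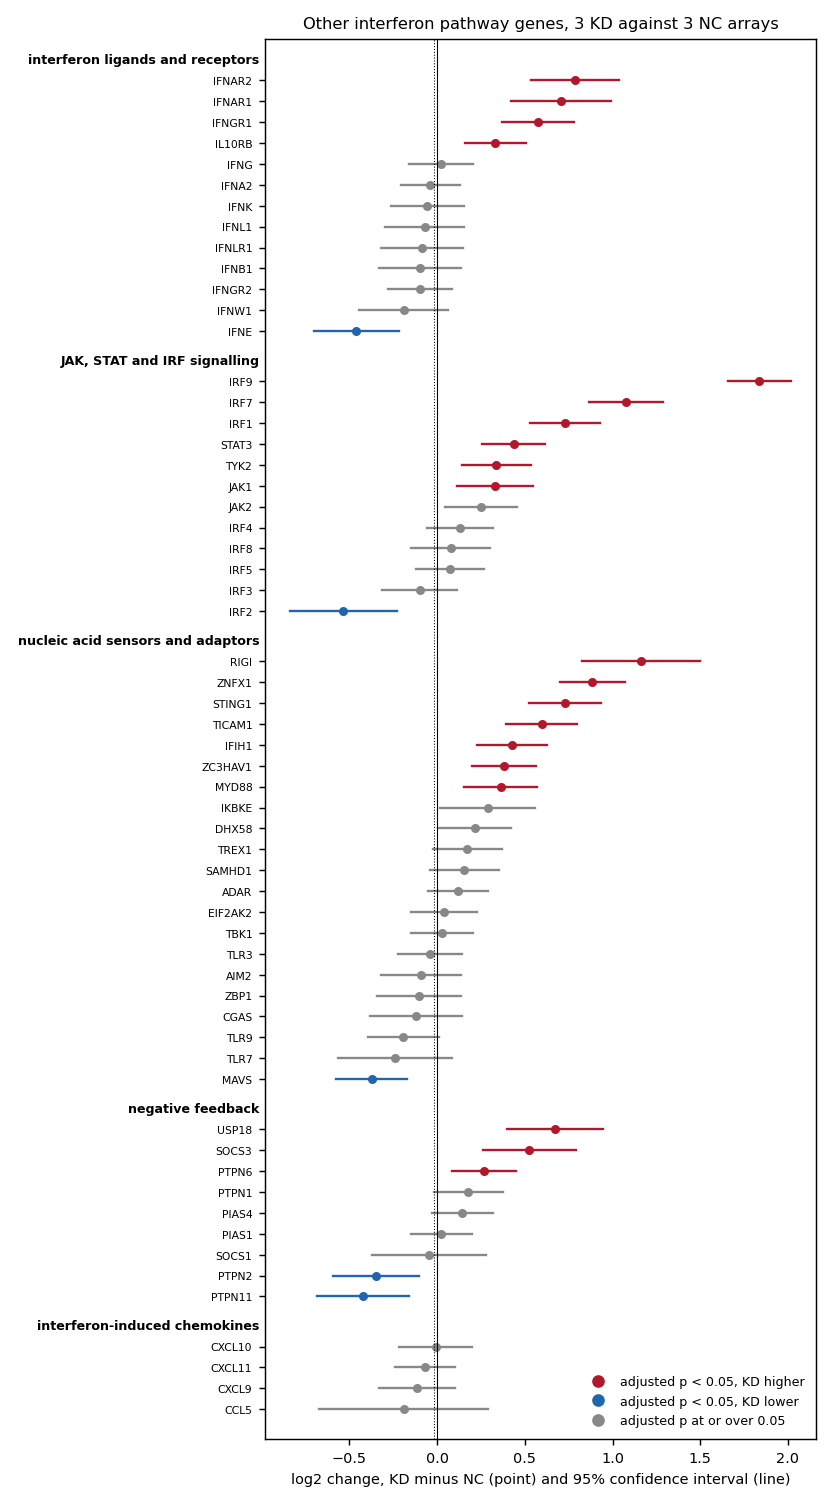
Change of the 59 measured interferon pathway genes outside the members, as log2 KD minus NC (point) with its 95% confidence interval (line), 3 arrays per group, grouped by role. IRF9 (1.84), RIGI (1.16) and IRF7 (1.08) lie farthest right, and the ligand genes and chemokines lie near or below 0.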

How the data were processed

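The authors deposited 1 table of values for 49395 probe sets, which were read as log2 because of their range (up to 14.3). Their summarisation and normalization are not given in the labels or files. A change therefore stands against the other genes on the arrays and not against a spike-in. The source names of NC replicates 2 and 3 carry other line names than the A549 of their characteristics and were used as A549. Platform annotation gave 45278 probe sets 1 gene symbol, 1333 several and 2682 none; 102 were controls. Each of 18244 genes took its probe set with 1 symbol and the highest mean over 6 arrays. The test across genes was limma 3.58.1 under R 4.3.3 (lmFit and eBayes on group alone, two-sided), adjusted by Benjamini-Hochberg over all genes, threshold 0.05; another fit covered all 49293 probe sets that are not controls. The steps were tested on simulated data. Members and lists were chosen with earlier results of these data known. Array values are printed for members past the test and at least 2-fold changed without overlap, and otherwise for the member of a family with the smallest p; the values of IFIT5, OAS1, MX2, TRIM25, GBP1, DTX3L, PLSCR1, RSAD2, IFNB1, IFNAR1, IRF7, IRF9 and RIGI were added after they were seen. Promoters are from RefSeq. Figures used matplotlib 3.10.9.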

Additional observations from a re-analysis of the deposited data

How the results depend on the processing

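Of the 25 members that rose, 22 kept the call in every alternative that could read them (12 to 15 of the 15 run); IFIT5, PARP9 and SP100 did not. None of the 3 falls did. The main dependence was on the choice of probe set. Without x, s and a suffixes, 1 of 12 members read rose and 1 fell (median change 0.040), the count of all genes higher was 750 and of all genes lower 918 out of 8374, 8 pathway genes rose and 3 fell, and OAS3 (0.019), PARP9 (-0.11) and IFIH1 (-0.14) changed sign without passing; MRPL35 had no such probe set. Without x and s suffixes alone, an alternative chosen after seeing the data, 15 members rose and 1 fell out of 35 (median 0.21). In that setting 16.9% of all genes rose, and DTX3L changed sign (0.052) without passing. Averaging all probe sets of each gene gave a member median of 0.38 and 3 pathway genes lower. The member median was 0.50 with median centring, 0.50 with array weights and 0.54 without dim genes, and 0.35 to 0.52 with single arrays left out, where the pathway falls numbered 3 to 5. The replicate block left 25 members higher and 3 lower; replicate numbers gave correlations of deviations of 0.25, 0.26 and -0.10, with 3 of 6 arrays closest to their own number, so samples were not treated as paired. Pseudocounts did not apply to log values. Background was not measured, which limits what dim members show.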
